A study of Mus musculus with 6 samples.

Results

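The genes examined encode 9 transcription factors of the myelomonocytic lineage, *Spi1*, *Cebpa*, *Cebpb*, *Klf4*, *Nr4a1*, *Maf*, *Zeb2*, *Runx1*, and *Tcf4*, and were taken by name from the 54232 genes in the files. RNA-seq had been carried out on monocytes (GFP- CD45+ CD11b+ Ly6C high Ly6G-) that were FACS sorted from the CNS at the peak of experimental autoimmune encephalomyelitis (EAE), a mouse model of multiple sclerosis. GFP+ recipients had been lethally irradiated and reconstituted with equal numbers of CD45.1 WT and CD45.2 *Ifnar1*-/- BM cells, EAE was induced 6 to 7 weeks later, and IFN-β was given at 30000 IU daily. There were 3 WT and 3 *Ifnar1*-/- libraries, numbered 1 to 3 in each group. All libraries came from treated mice, so the comparison is between cells with and without the type I IFN receptor in the same treatment, and receptor genotype cannot be told apart from the CD45 allele of the donor. The labels give neither the age nor the sex of the mice, and do not state which libraries came from the same mouse.

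Monocytes are made from BM progenitors under a small set of transcription factors. PU.1, the ETS factor encoded by *Spi1*, opens chromatin at most myeloid enhancers, usually together with C/EBP proteins and RUNX1. KLF4 is needed for monocyte differentiation downstream of PU.1, NR4A1 is the nuclear receptor on which Ly6C low patrolling monocytes depend, and c-MAF is a bZIP factor of resident macrophages and IL-10-producing cells. ZEB2 is a zinc finger repressor that preserves mononuclear phagocyte identity, and TCF4 (E2-2) is the E protein that specifies plasmacytoid dendritic cells (pDCs). IFNAR1 is a chain of the receptor for type I IFN, and the question here was whether transcripts of these lineage factors differed between receptor-bearing and receptor-lacking monocytes.

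Libraries held 7321380, 4531782, and 4946747 expected counts for WT (libraries 1 to 3) and 6916101, 5811323, and 5442568 for *Ifnar1*-/- monocytes, and values are given in this order throughout. Values below are normalized CPM, which are read counts scaled to library size by TMM, unless TPM is named. Mitochondrial ribosomal RNA took 12.3%, 14.2%, and 17.6% of WT counts against 22.7%, 15.1%, and 19.6% of *Ifnar1*-/- counts. WT library 1 stood apart in its small RNA: *Rn7s2*, a signal recognition particle RNA, held 27.8% of all TPM there, against 9.44% and 10.7% in the other WT libraries. The targeted gene, *Ifnar1*, had 153, 126, and 111 normalized CPM in WT against 109.9, 102, and 109 in *Ifnar1*-/- monocytes, with a log2 fold change of 0.28 (edgeR, SE 0.15, adjusted p = 0.360). In TPM the mean was higher in *Ifnar1*-/- monocytes and the groups overlapped, with 32.2, 43.0, and 36.7 in WT against 46.75, 48.7, and 41.7. The files give 1 value per gene and none per exon, so *Ifnar1* does not check the labels. The sort markers were abundant in each library, for example *Itgam*, the gene of CD11b, with 1931, 1668, and 1544 normalized CPM in WT against 1678, 1983, and 1528 in *Ifnar1*-/- monocytes.

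*Maf* was the only member of the 9 that passed the test, being higher in WT monocytes by 1.81-fold. Genes were called when the adjusted p was at most 0.05 and the fold change at least 1.5 in the edgeR quasi-likelihood test over 11254 genes, of which 2.13% were called, 1.67% as higher and 0.462% as lower in WT. The log2 fold change (WT over *Ifnar1*-/-) was above 0 for all 9 members, with a median of 0.40, whereas it was above 0 for 48.2% of the tested genes and their median was -0.01. For *Maf*, *Cebpa*, *Cebpb*, and *Spi1*, the lowest WT value exceeded the highest *Ifnar1*-/- value, which was the case for 11.1% of the tested genes. On the TPM scale, this held for *Maf*, *Cebpa*, and *Cebpb* but not for *Spi1*. An unadjusted p below 0.05 was found for 4 members, *Maf*, *Cebpb*, *Cebpa*, and *Klf4*, against 9.69% of tested genes with such a p and a higher value in WT. WT library 1 had the highest normalized CPM of all 6 libraries for 9 of the 9 members, as it did for 24.2% of the tested genes. Without it, all 9 log2 fold changes were still above 0, their median was 0.24, and no member was called, while the median of the 11507 genes tested in that fit was 0.002, with 5779 of them above 0 and 173 called. On the TPM scale, where *Rn7s2* enters the total, WT library 1 was the highest for 1 member.

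**Figure D1:**
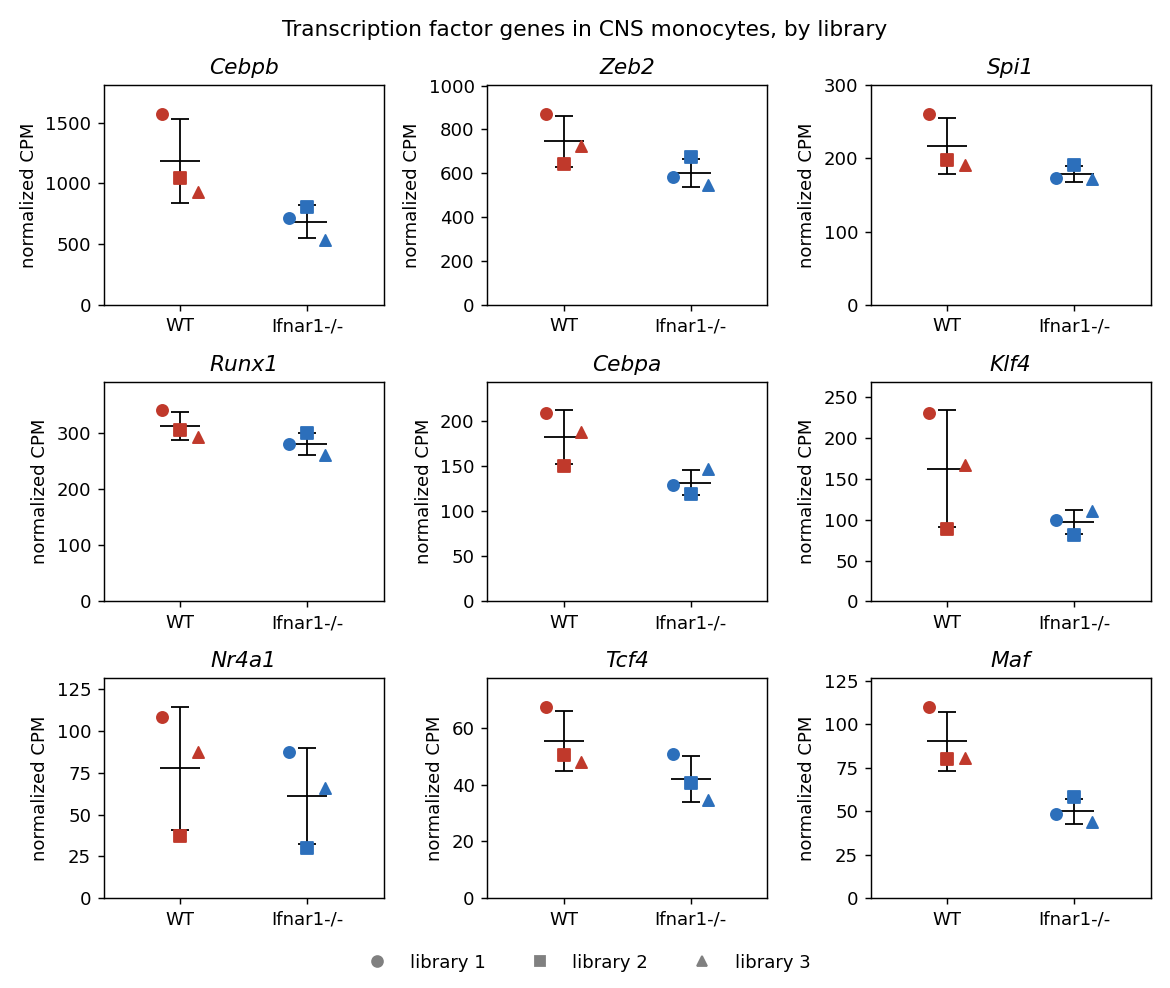
Normalized CPM (y axes, starting at 0) of the 9 transcription factor genes in 3 WT (red) and 3 Ifnar1-/- (blue) libraries, with symbols for library number and black lines for mean ± SD. WT library 1 is the highest point in each panel, and the groups are separate for Cebpb, Spi1, Cebpa, and Maf.

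*Maf* (ENSMUSG00000055435.6, chromosome 8, 115682942 to 115707794, minus strand) encodes c-MAF, a factor of macrophages that is also made by several T helper subsets. It had 109.8, 80.1, and 80.6 normalized CPM in WT against 48.3, 58.0, and 43.8 in *Ifnar1*-/- monocytes, in the order of libraries 1 to 3. All WT libraries were above all *Ifnar1*-/- libraries, with the narrowest gap between library 2 of either group. A log2 fold change at least as high as that of *Maf* was found for 3.62% of the tested genes. The means were 90.2 ± 17.0 (SD, n = 3) and 49.99 ± 7.25 (SD, n = 3), and the log2 fold change was 0.85 (edgeR, SE 0.17, adjusted p = 0.0336), with a 95% interval of the fold change from 1.38 to 2.36. A two-sided exact permutation test gave p = 0.1, and no smaller p can be reached with 3 libraries per group. In TPM, the authors' length-scaled unit, the WT libraries had 14.2, 15.5, and 15.2 and the *Ifnar1*-/- libraries were again lower (7.93, 10.85, and 7.39). TPM of WT library 1 are lowered by its *Rn7s2* share of 27.8%, so the closeness of these WT values does not measure their spread. The call was not retained when some libraries were left out: the adjusted p from edgeR was 0.0666 without WT library 1, 0.0562 without WT library 3, 0.168 without *Ifnar1*-/- library 1, and 0.155 without *Ifnar1*-/- library 3, with log2 fold changes from 0.69 to 0.99 over all 6 such fits. With limma on log2(TPM + 1), *Maf* was not called either (0.73 on that scale, adjusted p = 0.418). In bulk libraries of this kind, fewer cells with a transcript and less of it per cell cannot be told apart.

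T cell markers were higher in WT libraries as well and are therefore given beside *Maf*. Of 10 markers, 8 were tested, all 8 had a log2 fold change above 0 with a median of 1.496, and none was called. Summed over the 10 genes they reached 57.1, 26.4, and 56.1 normalized CPM in WT against 26.1, 10.3, and 11.2 in *Ifnar1*-/- monocytes. The one with the highest TPM was *Thy1*, with 9.11, 5.31, and 8.88 normalized CPM in WT against 5.34, 1.69, and 1.47 in *Ifnar1*-/- monocytes, and no marker was at 0 throughout. The sort was for CD11b+ Ly6C high cells, and the part of T cell RNA in the *Maf* value was not tested.

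The 10 genes fixed as *Maf*-linked, most of them markers of resident macrophages, were then examined. Of these, 5 were tested, 1 had a log2 fold change above 0, their median was -0.14, and none was called. The complement genes *C1qa*, *C1qb*, and *C1qc*, whose products start the classical complement cascade, had log2 fold changes of -0.42, -0.10, and -0.14 (adjusted p = 0.292, 0.878, and 0.824, edgeR). *Il10* was near the detection floor, with at most 0.611 normalized CPM in any library, and *Lyve1* and *Timd4* were at 0 counts in all of them. *Mrc1*, the mannose receptor gene of macrophages, had 34.9, 26.4, and 21.7 normalized CPM in WT against 51.3, 48.8, and 43.6 in *Ifnar1*-/- monocytes. All *Ifnar1*-/- values of *Mrc1* were above all WT values, and the log2 fold change was -0.79 (edgeR, adjusted p = 0.0610). A gene of this list was called under 6 alternatives, among them DESeq2 and the fit without WT library 1.

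Of the C/EBP proteins, bZIP factors that act with PU.1 at myeloid genes, *Cebpb* was the most abundant member of the 9. *Cebpb* (ENSMUSG00000056501.3, chromosome 2, 167688915 to 167690418, plus strand), the form linked to inflammatory cytokine genes and emergency granulopoiesis, had 1574, 1047, and 930.5 normalized CPM in WT against 716, 807, and 534 in *Ifnar1*-/- monocytes. The groups did not overlap, and WT library 1 lay far above the other WT libraries. Its log2 fold change was 0.79 (edgeR, SE 0.23, adjusted p = 0.124), with a 95% interval of the fold change from 1.21 to 2.47 around 1.73. DESeq2, the tool named in the study's methods, called it with an adjusted p of 0.0161 and a log2 fold change of 0.81, and without WT library 1 the log2 fold change from edgeR was 0.54. The gene overlaps *Tmem189* on the opposite strand, which had at most 1109 counts in any library against 2904 to 11065 for *Cebpb*, and whether reads were counted by strand is not given in the sources used here.

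*Cebpa* (ENSMUSG00000034957.10, chromosome 7, 35119293 to 35121928, plus strand), which is required for the step from common myeloid to granulocyte-monocyte progenitors, had 208, 150, and 188 normalized CPM in WT libraries. In *Ifnar1*-/- libraries it had 129, 119, and 146. WT library 2 and *Ifnar1*-/- library 3 nearly touched, yet the groups did not overlap. The log2 fold change was 0.47 (edgeR, SE 0.16, adjusted p = 0.172), with a fold change of 1.38 and a 95% interval from 1.08 to 1.78. The relatives *Cebpd*, *Cebpg*, and *Cebpz* had log2 fold changes of -0.01, -0.11, and -0.26 (adjusted p = 0.981, 0.708, and 0.480, edgeR).

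The haematopoietic factors *Spi1* and *Runx1* showed the smallest differences of the 9. *Spi1* (ENSMUSG00000002111.8, chromosome 2, 91082390 to 91115756, plus strand) had 261, 198, and 191 normalized CPM in WT against 173, 191, and 172 in *Ifnar1*-/- monocytes. The lowest WT library and the highest *Ifnar1*-/- library were almost level, at 191.1 and 190.8. The log2 fold change was 0.28 (edgeR, SE 0.16, adjusted p = 0.390), and the 95% interval of the fold change, 0.950 to 1.55, holds both no difference and one of 1.5-fold. *Runx1* (ENSMUSG00000022952.17, chromosome 16, 92601466 to 92826149, minus strand), the DNA-binding partner of CBFβ, had 341, 306, and 292 normalized CPM in WT against 281, 299.6, and 261 in *Ifnar1*-/- monocytes. The groups overlapped, and the log2 fold change was 0.16 (edgeR, SE 0.14, adjusted p = 0.601; 95% interval of the fold change, 0.898 to 1.39). *Runx1* lies 1.09 Mb from *Ifnar1*, so its value cannot be told apart from an effect of donor DNA around the targeted gene. Its relative *Runx3* had 116, 48.5, and 60.4 normalized CPM in WT against 35.9, 53.4, and 42.5 in *Ifnar1*-/- monocytes, with a log2 fold change of 0.78 (adjusted p = 0.201, edgeR).

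*Klf4* and *Nr4a1*, which act in monocyte differentiation and in the conversion to Ly6C low cells, had the highest coefficients of variation among WT libraries, 44.1% and 47.3%. *Klf4* (ENSMUSG00000003032.8, chromosome 4, 55527143 to 55532466, minus strand) had 231, 88.2, and 168 normalized CPM in WT against 100.2, 81.8, and 111 in *Ifnar1*-/- monocytes. WT libraries 1 and 3 were above every *Ifnar1*-/- library, but WT library 2 was among them. The difference in *Klf4* was 0.74 on the log2 scale (edgeR, SE 0.29, adjusted p = 0.217), with a 95% interval of the fold change from 1.07 to 2.595. Leaving out WT library 2 raised the log2 fold change to 1.05 (adjusted p = 0.0371, edgeR) and leaving out WT library 1 lowered it to 0.40 (adjusted p = 0.557). With all 6 libraries and no filter on low counts, edgeR called *Klf4* at 0.73 (SE 0.18 against 0.29, adjusted p = 0.00141). That fit called 872 genes, against 240 with the filter. Of its relatives, *Klf2* had 91.8, 42.5, and 89.0 normalized CPM in WT against 43.5, 25.1, and 50.9 in *Ifnar1*-/- monocytes, again with library 2 the lowest of each group, and a log2 fold change of 0.91 (adjusted p = 0.166, edgeR). *Klf6* and *Klf13*, the other Klf genes with high TPM, had log2 fold changes of 0.03 and 0.36 (adjusted p = 0.958 and 0.291, edgeR).

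*Nr4a1* (ENSMUSG00000023034.7, chromosome 15, 101254269 to 101274795, plus strand) is an immediate early gene, induced within minutes by receptor and stress signals. It had 108, 37.0, and 87.7 normalized CPM in WT against 87.3, 30.2, and 65.8 in *Ifnar1*-/- monocytes, in the order of libraries 1 to 3. Within each genotype library 2 was far below the others, at 37.7% of the mean of the other libraries in WT and at 39.4% in *Ifnar1*-/- monocytes. The numbers come from the sample titles, and no label ties libraries of the same number to each other. Library 2 was the lowest within both groups for 3 members (*Cebpa*, *Klf4*, and *Nr4a1*) and for 11.5% of the tested genes. The log2 fold change between genotypes was 0.35 (edgeR, SE 0.40, adjusted p = 0.698), and the 95% interval of the fold change, 0.685 to 2.37, was the widest relative to its value among the members. Among the genes of the fixed lists, those with the most similar pattern over the 6 libraries were *Trib1*, a pseudokinase gene (Pearson's r = 0.99), and *Ets2* (r = 0.96), an ETS factor gene. In library 2, *Trib1* was at 74.4% and 74.6% and *Ets2* at 66.2% and 67.6% of the mean of the others, in WT and *Ifnar1*-/- monocytes. The relatives *Nr4a2* and *Nr4a3* had log2 fold changes of -0.35 and 0.22 (adjusted p = 0.502 and 0.632, edgeR).

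**Figure D2:**
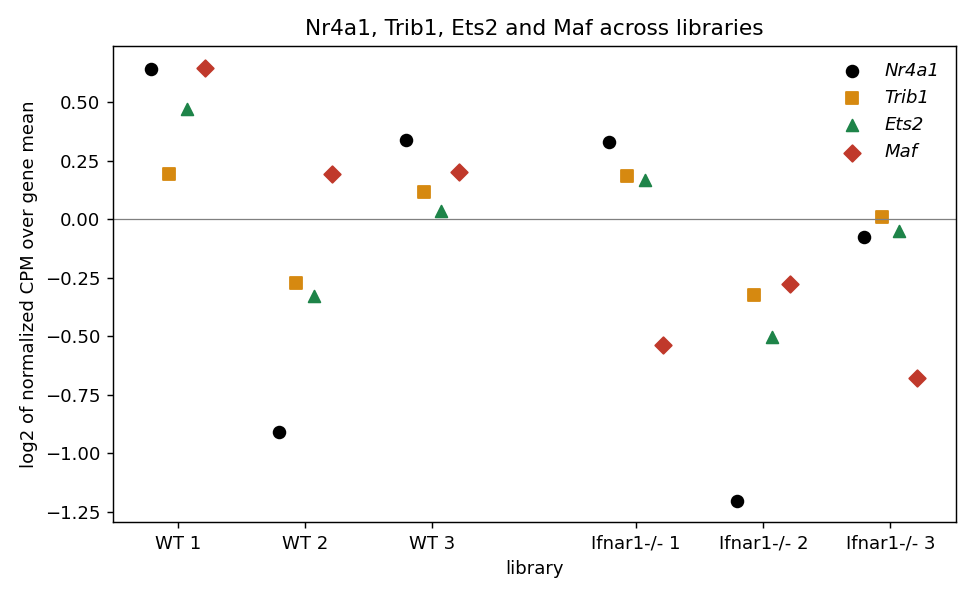
Log2 of normalized CPM over the mean of all 6 libraries (y axis) for Nr4a1, Trib1, Ets2, and Maf in each library (x axis). Nr4a1, Trib1, and Ets2 are lowest in library 2 of both genotypes, whereas Maf is above its mean in all 3 WT libraries and below it in all 3 Ifnar1-/- libraries.

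The upstream sequences of *Nr4a1* and *Cebpb* are shown because they hold copies of a motif of stimulus-responsive genes. RefSeq promoter windows (GRCm38.p6) were matched for 6 members, *Cebpa*, *Cebpb*, *Klf4*, *Nr4a1*, *Runx1*, and *Zeb2*, with 10 windows in all. The 250 bases before each start site were searched on both strands for TGCGTCA (reverse complement TGACGCA), a heptamer that resembles sites of the CREB and AP-1 families and that was chosen after the expression values were seen. In *Nr4a1* it occurred 4 times, with its first base at -235, -215, -71, and -42 relative to the start site, and in *Cebpb* it occurred 1 time, directly before the start site. Of all 32851 windows, which were not matched for GC content, 1.75% held at least 1 copy. Only 1 window held 4 copies, that of *Nr4a1* itself. The heptamer was not among the motifs fixed beforehand, and these windows are shown because they hold it. The count is therefore a description and not a test. The plus strand is shown for *Nr4a1* (chr15:101266596-101266845) and *Cebpb* (chr2:167688665-167688914), with copies of the heptamer in capitals.
Nr4a1: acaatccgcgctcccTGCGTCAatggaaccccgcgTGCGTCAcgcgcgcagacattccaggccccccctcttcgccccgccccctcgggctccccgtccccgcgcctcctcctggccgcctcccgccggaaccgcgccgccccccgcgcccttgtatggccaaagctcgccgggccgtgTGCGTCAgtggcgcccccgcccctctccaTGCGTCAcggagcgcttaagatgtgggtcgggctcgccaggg
Cebpb: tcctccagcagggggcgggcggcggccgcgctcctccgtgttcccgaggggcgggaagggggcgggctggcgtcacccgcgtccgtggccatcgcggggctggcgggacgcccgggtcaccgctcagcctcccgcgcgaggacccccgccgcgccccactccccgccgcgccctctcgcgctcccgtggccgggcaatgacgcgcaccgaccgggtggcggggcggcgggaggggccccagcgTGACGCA
The core of the interferon-stimulated response element (GAAA, any 2 bases, and GAAA again), and a PU.1 core, GAGGAAGT, were searched on both strands of the full windows of 300 bases. They were found in 3.44% and 3.20% of all windows and in 0 of the 10 windows of these members (the motifs may share bases with each other), which says only that these letters are not in these windows.

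The remaining members, *Zeb2* and *Tcf4*, are linked to dendritic cell and pDC fates. *Zeb2* (ENSMUSG00000026872.17, chromosome 2, 44983632 to 45117395, minus strand) had 872, 641, and 727 normalized CPM in WT against 583, 674, and 546 in *Ifnar1*-/- monocytes. *Ifnar1*-/- library 2 was above WT library 2, so the groups overlapped, and the log2 fold change was 0.31 (edgeR, SE 0.17, adjusted p = 0.366; 95% interval of the fold change, 0.956 to 1.62). The antisense gene *Zeb2os* overlaps it on the opposite strand and had at most 124 counts in any library, against 2971 to 6130 for *Zeb2*. *Id2*, a gene that ZEB2 is known to repress and whose product blocks E proteins such as TCF4, had 227, 283, and 221 normalized CPM in WT against 228, 241, and 200 in *Ifnar1*-/- monocytes, with a log2 fold change of 0.13 (adjusted p = 0.716, edgeR).

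*Tcf4* (ENSMUSG00000053477.17, chromosome 18, 69343356 to 69689079, plus strand) had 67.4, 50.4, and 48.2 normalized CPM in WT against 50.7, 40.5, and 34.6 in *Ifnar1*-/- monocytes. *Ifnar1*-/- library 1 lay above WT libraries 2 and 3. For *Tcf4*, the log2 fold change was 0.40 (edgeR, SE 0.19, adjusted p = 0.290), with a 95% interval of the fold change from 0.992 to 1.76. Of 15 genes linked to TCF4 and pDCs, 7 were tested, and 2 were higher in WT monocytes with 0 lower, *Tlr9* (log2 fold change 1.63, adjusted p = 0.00199, edgeR) and *Bst2* (log2 fold change 2.10, adjusted p = 0.00325, edgeR). *Tlr9*, an endosomal DNA sensor, had 140, 97.98, and 81.5 normalized CPM in WT against 31.3, 40.2, and 31.8 in *Ifnar1*-/- monocytes. *Bst2*, the gene of tetherin, had 89.1, 67.8, and 48.0 normalized CPM in WT against 10.7, 22.7, and 14.7 in *Ifnar1*-/- monocytes. The groups were far apart for both, and *Bst2* is a gene that many cells induce in response to type I IFN. *Irf8*, *Tlr7*, and *Ptprs*, the other genes of this list with high TPM, had log2 fold changes of 0.10, 0.59, and 0.49 (adjusted p = 0.784, 0.0620, and 0.470, edgeR). The defining markers of pDCs were at or near 0: *Siglech*, *Ccr9*, *Klk1*, *Cox6a2*, *Ly6d*, *Pacsin1*, and *Spib* together summed to 5.41, 5.10, and 7.70 normalized CPM in WT against 3.82, 2.37, and 3.31 in *Ifnar1*-/- monocytes, and 0 of the 7 passed the filter on low counts. The E protein relatives *Tcf3* and *Tcf12* had log2 fold changes of 0.42 and -0.36 (adjusted p = 0.327 and 0.239, edgeR), and for *Tcf12* each *Ifnar1*-/- library lay above each WT library.

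**Figure D3:**
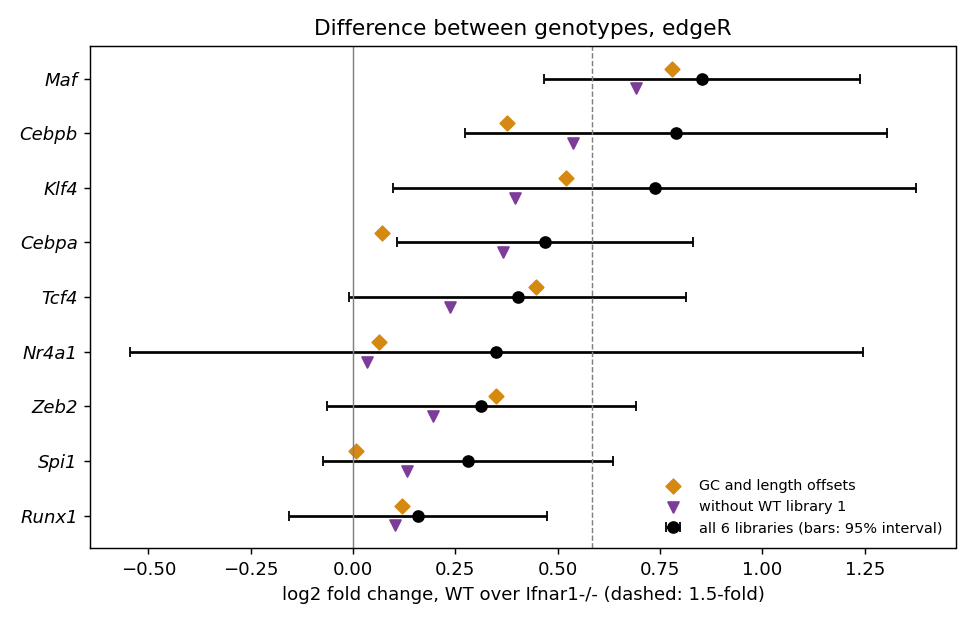
Log2 fold change of WT over Ifnar1-/- (x axis) for each gene, from edgeR with all 6 libraries (black, bars are 95% intervals), with offsets for GC content and gene length (orange), and without WT library 1 (purple). Maf keeps the highest value under all 3, from 0.69 to 0.85, while Cebpa and Spi1 drop to 0.07 and 0.01 with the offsets.

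The fold changes of several members moved with GC content. Across 11242 tested genes with a known sequence, the log2 fold change correlated with the GC content of the longest transcript (Spearman's rho = 0.37 across genes, which are not independent replicates). Genes with a GC content from 45% to 50% had a median log2 fold change of -0.05, and those of at least 60% had one of 0.31. *Cebpb*, at 67.2% GC, and *Cebpa*, at 62.6%, lay in the latter range, *Spi1* (58.9%) and *Nr4a1* (57.0%) between 55% and 60%, where the median was 0.21, and *Maf* at 47.4%. With offsets for GC content and length fitted in each library, the log2 fold changes were 0.38 for *Cebpb*, 0.07 for *Cebpa*, 0.01 for *Spi1*, and 0.06 for *Nr4a1*, with adjusted p from 0.555 to 0.987 (edgeR). *Maf* had 0.78 (adjusted p = 0.0294, edgeR) and was still called, *Klf4* had 0.52, and *Zeb2* and *Tcf4*, with GC contents of 40.6% and 40.9%, had 0.35 and 0.45. Such an offset takes away any difference that runs with GC content, from whatever source, and the source was not tested.

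**Figure D4:**
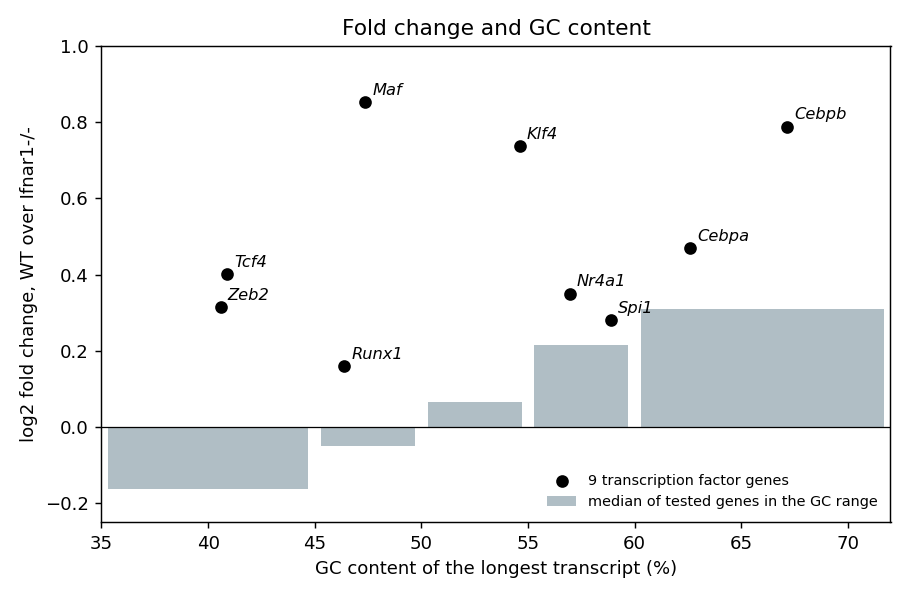
Log2 fold change of WT over Ifnar1-/- (y axis) against GC content of the longest transcript in percent (x axis), with bars for the median of all tested genes in 5 ranges of GC content and points for the 9 genes. The medians rise from -0.16 below 45% to 0.31 at 60% and above, and all 9 genes lie above the median of their own range, Spi1 and Nr4a1 by the least.

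By level, measured in TPM so that genes of different length can be set side by side, the order was *Cebpb*, *Zeb2*, *Spi1*, *Runx1*, *Cebpa*, *Klf4*, *Nr4a1*, *Tcf4*, and *Maf*. The means over all 6 libraries ran from 640 TPM for *Cebpb*, above 98.7% of the tested genes, to 11.85 TPM for *Maf*, above 52.6% of them. The called gene was thus the least abundant of the 9. *Cebpb* had 802 ± 61.9 TPM in WT and 479 ± 133 in *Ifnar1*-/- monocytes (SD, n = 3 each), and *Zeb2* had 222 ± 21.2 and 179 ± 58.5. *Spi1* had 160 ± 12.5 TPM in WT and 135 ± 11.9 in *Ifnar1*-/- monocytes, and *Runx1* had 80.9 ± 10.7 and 73.4 ± 14.4. The ranges over libraries did not overlap between *Cebpb* and *Zeb2*, nor between *Spi1* and *Runx1*. *Zeb2* and *Spi1* overlapped, as did *Runx1* with *Cebpa*, and each gene from there to *Maf* with the next in order. Within each single library, *Cebpb*, *Zeb2*, *Spi1*, *Runx1*, and *Cebpa* kept the same order in 6 of 6 libraries, while *Klf4* was above *Nr4a1* in 5 and *Nr4a1* above *Tcf4* in 4. TPM of WT library 1 are lowered by its *Rn7s2* share. The length-scaled CPM, which use the TMM sizes, gave the same rank to all 9 genes.

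Transcript usage was compared by length. RSEM reports for each library a gene length averaged over the transcripts to which reads were assigned. *Cebpb* has a single annotated transcript and could show no difference. For 0 of the other 8 members were the WT and *Ifnar1*-/- lengths separate, and exact permutation tests gave p from 0.2 to 1. Without *Ifnar1*-/- library 2, 3 members had separate lengths. The share of all genes with separate lengths is not given here, so the count only describes these members. *Zeb2*, with 29 annotated transcripts, had 3200, 3275, and 3230 bases in WT against 3740, 2937, and 3396 in *Ifnar1*-/- monocytes. The WT values were close together and the *Ifnar1*-/- values lay on both sides of them. *Tcf4*, with 62 transcripts, had 2938, 2738, and 2492 bases in WT against 2534, 2273, and 2747 in *Ifnar1*-/- monocytes.

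Among related factors, none passed the test, although some of low abundance came near it. Of 21 relatives of the members, 19 were tested, 12 had a log2 fold change above 0, and their median was 0.10. Of 24 partners and inhibitors, 23 were tested, 15 had a log2 fold change above 0, and their median was also 0.10. *Cbfa2t3*, a corepressor gene of the ETO family, had 16.5, 8.29, and 10.1 normalized CPM in WT against 4.28, 2.71, and 5.52 in *Ifnar1*-/- monocytes (log2 fold change 1.498, adjusted p = 0.0542, edgeR). *Zfpm1* and *Zeb1*, the latter the paralog of *Zeb2*, had log2 fold changes of 1.63 and 1.32 (adjusted p = 0.0867 and 0.0987, edgeR) at no more than 4.34 normalized CPM in any library, and the groups were separate for all 3 of these genes. *Gfi1*, a repressor gene of granulocytic cells, was separate in the other direction, with a log2 fold change of -0.98 (adjusted p = 0.149, edgeR). Under alternatives, up to 2 relatives and up to 2 partners were called. *Jun*, an AP-1 subunit that pairs with C/EBP proteins, had 1096, 686, and 983 normalized CPM in WT against 645, 580, and 684 in *Ifnar1*-/- monocytes. The groups nearly met but did not overlap, and the log2 fold change was 0.54 (adjusted p = 0.186, edgeR). *Irf8*, which acts with PU.1 in monocyte progenitors, had 258, 305, and 241 normalized CPM in WT against 233, 279, and 239 in *Ifnar1*-/- monocytes. *Cbfb*, the partner subunit of RUNX1, had 88.1, 100.3, and 94.2 normalized CPM in WT against 121, 93.2, and 114 in *Ifnar1*-/- monocytes, with a log2 fold change of -0.22 (adjusted p = 0.476, edgeR).

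Genes that PU.1 and C/EBP proteins are known to activate did not pass the test either. All 16 were tested, 12 had a log2 fold change above 0, and the median was 0.16. *Lyz2*, the lysozyme gene, had a log2 fold change of -0.25, *Itgb2* 0.17, and *Itgam* -0.01 (adjusted p = 0.588, 0.656, and 0.981, edgeR). *Csf3r* and *Fcgr1*, receptor genes for G-CSF and IgG, had log2 fold changes of 0.82 and 0.71 (adjusted p = 0.0895 and 0.0839, edgeR), and *Cd300lf* and *Csf2ra* had 0.59 and 0.50 (adjusted p = 0.101 and 0.174, edgeR). For these 4 genes all WT values were above all *Ifnar1*-/- values. With DESeq2, 3 genes of this list were called.

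Of genes that mark Ly6C high monocytes, 10 were tested, 1 was higher in WT and 0 were lower, with a median log2 fold change of -0.11. The called gene, *Ly6c2*, which encodes the Ly6C antigen of the sort, had 726, 788, and 640 normalized CPM in WT against 177, 300, and 337 in *Ifnar1*-/- monocytes. *Ly6c2* differed by 1.40 on the log2 scale (adjusted p = 0.00957, edgeR), and its reads could have been divided with the near-identical *Ly6c1*. *Chil3*, *Fn1*, and *Plac8* had log2 fold changes of -0.50, -0.03, and 0.57 (adjusted p = 0.309, 0.973, and 0.116, edgeR). *Ccr2*, the chemokine receptor gene by which monocytes leave the BM, had 648, 694, and 587 normalized CPM in WT against 1269, 794, and 905 in *Ifnar1*-/- monocytes. Each *Ifnar1*-/- value of *Ccr2* was above the WT values, opposite to *Ly6c2*, and the log2 fold change was -0.62 (edgeR, adjusted p = 0.143). Of 11 genes of Ly6C low monocytes, the cells that depend on *Nr4a1*, 10 were tested, none was called, and the median was 0.13. *Itgal*, *Itgax*, and *Spn* had log2 fold changes of 0.07, 0.13, and 0.13 (adjusted p = 0.881, 0.852, and 0.782, edgeR). *Cx3cr1*, a receptor gene of patrolling monocytes, had 35.1, 10.6, and 16.8 normalized CPM in WT against 36.3, 13.2, and 22.4 in *Ifnar1*-/- monocytes, and as for *Nr4a1*, library 2 was the lowest of each group. Over the 103 relatives, partners, and linked genes together, 3 of the 87 tested were higher in WT and 0 lower.

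Markers of other cells that a CNS sort could hold were summed in the same way. Besides T cell markers, only those of pDCs, given above, had sums that did not overlap between the groups. The T cell sums nearly met, at 26.4 in WT library 2 and 26.1 in *Ifnar1*-/- library 1, and no pDC marker passed the filter on low counts. Of the 10 neutrophil markers, 9 were tested, none was called, and the median log2 fold change was -0.11, but their sum differed widely between libraries, with 429, 800, and 2006 normalized CPM in WT against 950, 855, and 2309 in *Ifnar1*-/- monocytes. *S100a9* had the highest TPM among them, and *Ly6g*, the defining marker that the gate excluded, had at most 0.790 normalized CPM. WT library 1, the library with the highest values of all members, had the lowest neutrophil sum, and the part of this in the members' values was not tested. Of 8 microglia markers, 5 were tested, none was called, and the median log2 fold change was 0.07. *P2ry12*, a purinergic receptor gene of microglia, had 15.2, 27.4, and 17.4 normalized CPM in WT against 23.7, 31.01, and 23.5 in *Ifnar1*-/- monocytes, and *Tmem119* had at most 11.4 in any library. B cell markers summed to at most 11.1 normalized CPM with *Pax5* at 0 in all libraries, and dendritic cell markers to at most 31.7. Neural markers summed to between 44.6 and 61.5 normalized CPM, most of it *Mbp*, with *Mog* and *Rbfox3* at 0.

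WT library 1 was the highest for each member, but the patterns over the 6 libraries were alike for only some of them. As a description over 6 libraries that share depth and composition, *Cebpb* and *Runx1* had Pearson's r = 0.98 and *Cebpb* and *Maf* r = 0.96 on the log2 scale. *Nr4a1* was least like the others, with r = 0.10 to *Runx1*, 0.23 to *Cebpb*, 0.24 to *Maf*, and 0.81 to *Klf4*. Over 91 genes of the lists with at least 10 normalized CPM, *Maf* was most like *Tlr9* (r = 0.98) and *Cebpb*, *Cebpa* most like *Jun* (r = 0.98) and *Ddit3* (r = 0.95), and *Klf4* also most like *Jun* and *Ddit3* (r = 0.97 each). *Zeb2* was most like *Csf2ra*, a chain of the GM-CSF receptor (r = 0.95), and *Tcf4* most like *Cebpb* (r = 0.90).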

How the data were processed

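Per the labels and the study's methods, the authors aligned reads to GRCm38 with STAR 2.6.0c and quantified genes with RSEM 1.2.31. The deposited files hold, for each library, RSEM expected counts, TPM, and gene lengths in bases (an other unit, averaged over transcripts by the authors). FPKM were not used. The sources name 2 stranded library kits, and the strand setting of the counting is not given in the sources used here. Of 54232 genes, 54165 matched GENCODE M21.

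Expected counts were rounded and tested with edgeR 4.0.16 (TMM, filterByExpr with a minimum count of 10, quasi-likelihood test, R 4.3.3) over 11254 genes, 3 WT against 3 *Ifnar1*-/- libraries, with Benjamini-Hochberg adjustment. Genes were called at an adjusted p up to 0.05 with a change of 1.5-fold or more. A floor of 3 counts corresponds to 0.410 to 0.662 CPM, and intervals cover the spread between these libraries, which may be technical: the paper gives 3 recipient mice and 3 samples per genotype, but no label ties a library to a mouse. On simulated data for this comparison (11056 genes tested), 94.8% of 4-fold and 54.1% of 2-fold changes were recovered, and 8.86% of calls were false. DESeq2 1.42.0, limma 3.58.1, other normalizations and filters, offsets, and leaving out libraries were alternatives.

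The members and lists were chosen with earlier results of these data known. Named were all members, all called list genes, and up to 3 further genes per list with the highest mean TPM, and, for likeness, the 2 list genes most correlated with each member (such as *Trib1*, *Ets2*, *Ddit3*, and *Csf2ra*). *Cebpd*, *Cebpg*, *Cebpz*, *Runx3*, *Klf2*, *Nr4a2*, *Nr4a3*, *Tcf3*, *Tcf12*, *Cbfb*, *Cbfa2t3*, *Zfpm1*, *Zeb1*, *Gfi1*, *Mrc1*, *Csf3r*, *Fcgr1*, *Cd300lf*, the fold change of *Csf2ra*, *Il10*, and *Cx3cr1* were added after their values were seen. Correlations used log2(normalized CPM + 0.5). Some genes of the lists are not reported here.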

Additional observations from a re-analysis of the deposited data

How the results depend on the processing

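Over 20 alternatives, all 180 log2 fold changes of the members were above 0, and 169 of the 180 kept their side of the threshold. These are refits of the same libraries, not independent checks, and some values were close to 0. *Spi1* had 0.0005 with GC and length offsets and the replicate block, and *Nr4a1* had 0.03 without WT library 1. DESeq2 called 420 genes (316 higher and 104 lower in WT, against 188 and 52 of 240 with edgeR), 2 members, and 11 of the related genes (against 3), and gave *Cebpb* 0.81 (adjusted p = 0.0161). Without a filter on low counts, edgeR called 872 genes, 3 members, and 15 related genes, with 0.79 for *Cebpb* (adjusted p = 0.00267) and 0.73 for *Klf4* (adjusted p = 0.00141). limma called 109 genes on log2(TPM + 0.1) and 110 on log2(TPM + 1), with 0 members in both and *Maf* at 0.79 (adjusted p = 0.417) and 0.73 (adjusted p = 0.418). On log2(protein-coding TPM + 1), chosen after seeing the data, limma called 148 genes and 0 members, with *Maf* at 0.81 (adjusted p = 0.0996). GC and length offsets gave 5 related genes, and with the replicate block 9 of them and 383 genes in all. The causes of these differences were not tested. The number of genes tested differs between these settings and is not given here. The counts of called members therefore stand without a share over all genes.

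Leaving out 1 library in turn gave 119 to 245 called genes, 0 to 2 members, 3 to 4 related genes, and 0 to 3 members with separate transcript lengths. The number of genes tested is given only for the fit without WT library 1, so these member counts also stand without a share. The count of called genes was 119 without *Ifnar1*-/- library 1, 120 without *Ifnar1*-/- library 3, and 148 without WT library 3. The log2 fold changes ranged from 0.69 to 0.99 for *Maf*, 0.40 to 1.05 for *Klf4*, 0.54 to 0.96 for *Cebpb*, 0.37 to 0.61 for *Cebpa*, 0.03 to 0.73 for *Nr4a1*, 0.13 to 0.39 for *Spi1*, 0.24 to 0.58 for *Tcf4*, 0.19 to 0.43 for *Zeb2*, and 0.10 to 0.23 for *Runx1*.

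The same replicate numbers stand in both groups, but deviations of same-numbered libraries correlated at 0.09, 0.03, and 0.29, and no label ties them. With the replicate block in edgeR, 6 related genes were called and *Maf* had 0.85 (adjusted p = 0.0482), while *Nr4a1* had 0.34 (SE 0.14 against 0.40 without the block, adjusted p = 0.254).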
